A study of Rattus norvegicus with 6 samples.

Results

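The Notch pathway was followed through 10 genes: the receptors Notch1, Notch2 and Notch3, the ligands Jag1, Jag2 and Dll4, and the transcriptional targets Hes1, Hey1, Hey2 and Heyl. They were taken by gene name, and 10 of the 33565 rows of the count table are theirs, 1 row for each. The cells were primary cardiomyocytes of Sprague-Dawley rats at postnatal day 7, kept in Dulbecco's modified Eagle's medium (10% serum of fetal calves) and given vehicle (control) or 100 nM progesterone, a steroid hormone, for 24 h. RNA-seq of mRNA-enriched RNA was available for 3 control and 3 progesterone samples, called biological replicates by the labels, and the series title names YAP and cardiomyocyte proliferation as the study's subject. The labels do not say if a replicate is an animal, a pool or a culture, and the p-values therefore gauge sample-to-sample spread only, part of which may be technical.

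Notch receptors are membrane proteins that are cut when a ligand on a neighbouring cell pulls on them. The freed intracellular part enters the nucleus, joins the DNA-binding protein RBPJ and switches on genes of the HES and HEY family, which encode basic helix-loop-helix repressors. In the heart the pathway is known for its part in endothelial and valve development, in the growth of immature cardiomyocytes and, through Notch3, in the identity of smooth muscle cells and pericytes.

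The libraries held 21156793 to 25376220 counts. In edgeR's quasi-likelihood fit of 15075 genes, 63.0% passed at an adjusted p under 0.05, 31.2% as higher and 31.8% as lower with progesterone, so a change by itself was common. All 10 Notch genes passed the filter on low counts. With progesterone 6 of them were higher (Notch3, Jag1, Hes1, Hey1, Hey2 and Heyl) and 2 were lower (Notch2 and Dll4), while Notch1 and Jag2 did not pass. Over the 10 genes the log2 fold changes had a median of 0.56, against 0.00 over all genes tested. Changes of at least 1.5-fold that passed were found for 5 higher genes and 1 lower gene of the 10, where 13.1% and 15.9% of all genes were so called. The groups did not overlap in 8 of the 10 genes (68.6% of all genes), with progesterone above in 6 (33.8% of all genes) and below in 2 (34.8%).

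**Figure D1:**
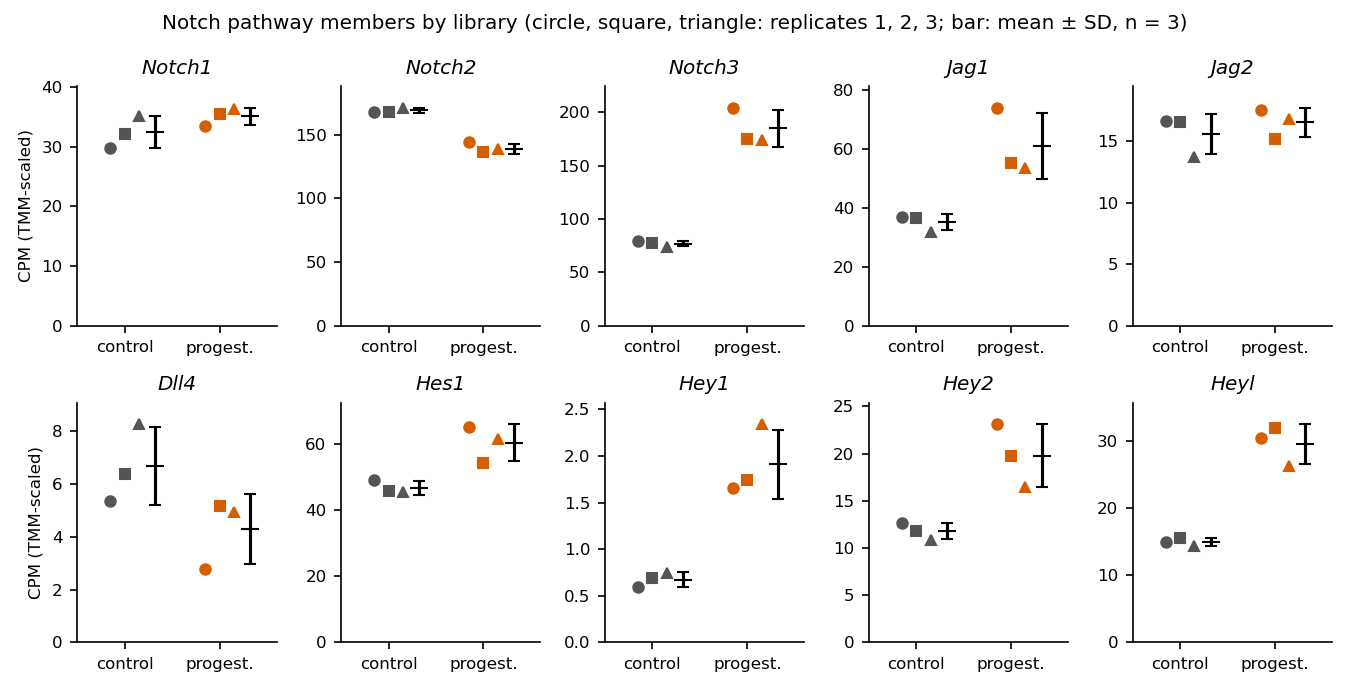
Expression of the 10 Notch genes in each library, in CPM scaled by TMM (y axis, from 0), for 3 control and 3 progesterone libraries; bars give mean ± SD. Notch3 rose from 77 to 185 CPM and Notch2 fell from 169 to 139 CPM, while the groups of Notch1 and Jag2 overlap.

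The receptors moved apart. Notch3, the receptor of vascular smooth muscle and pericytes, was read at 79.5, 77.4 and 74.1 CPM (counts relative to library size) in control replicates 1 to 3 and at 204, 175 and 174 CPM in progesterone replicates 1 to 3. Every progesterone library lay far above every control, and replicate 1 was the highest of the 3. The rise was 2.4-fold (log2 fold change 1.26 ± 0.06, SE; edgeR adjusted p = 9.9e-10), and 5.1% of all tested genes had a higher log2 fold change. The Notch3 row lies on chromosome 7 (14138495 to 14189688, minus strand, in a rat build that the table does not name). Notch2, a receptor with broad expression, was read at 168, 168 and 171 CPM in the controls and at 144, 136 and 139 CPM with progesterone. Its groups did not overlap, but the fall was small, 1.21-fold (log2 fold change -0.28 ± 0.04, edgeR adjusted p = 2.5e-05). Notch1, a receptor of endothelium and of immature cardiomyocytes, had 29.8, 32.2 and 35.2 CPM in the controls and 33.5, 35.4 and 36.3 CPM with progesterone. These ranges overlapped, and its log2 fold change of 0.12 (95% interval -0.03 to 0.26, edgeR adjusted p = 0.15) did not pass. Notch1 did pass as higher with upper quartile scaling (0.21, edgeR adjusted p = 0.012) and without control replicate 3 (0.18, edgeR adjusted p = 0.039).

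Most genes listed as markers of the cells in which Notch3 is best known were higher as well. Of 16 smooth muscle and pericyte markers, all of them tested, 14 were higher with progesterone (31.2% of all genes) and 2 were lower (31.8%). Their log2 fold changes had a median of 1.05, and their summed FPKM (counts per gene length and library total) ran from 1068 to 1345 in the controls and from 2999 to 3379 with progesterone. Acta2, smooth muscle actin, had a log2 fold change of 1.92 ± 0.14 and Itga8, an integrin chain of mesenchymal cells, of 1.91 ± 0.05. Tagln, the actin-binding transgelin, had 1.19 ± 0.15. Acta2 and Tagln made up most of the summed FPKM of the list. Their means were 494 and 297 FPKM in the controls and 1868 and 677 FPKM with progesterone. Pdgfrb, the PDGF receptor of mural cells and fibroblasts, rose less (0.25 ± 0.04). The pair that fell, Kcnj8 (-1.3 ± 0.11) and Abcc9 (-1.17 ± 0.17), encode the subunits of a potassium channel used as pericyte markers. Rgs5 (1.47 ± 0.08) and Cspg4 (0.91 ± 0.05), also used as pericyte markers, rose. These genes were named after their values were seen. No marker of that list was at 0 in all libraries. Their part in the rise of Notch3, and in that of Jag1, Heyl and the other genes that rose, was not tested. In RNA from whole cultures, more cells of a type and more RNA per cell cannot be told apart. In which cells these markers were read was not measured either.

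The ligands also went different ways. Jag1, a ligand of the Jagged class carried by smooth muscle and endothelium among other cells, was read at 37, 36.7 and 32 CPM in the controls and at 74, 55.3 and 53.7 CPM with progesterone. All progesterone values exceeded all controls, with replicate 1 well above the other two. The rise was 1.73-fold (log2 fold change 0.79 ± 0.15, edgeR adjusted p = 0.0053). Leaving out progesterone replicate 1 gave 0.63 with an edgeR adjusted p of 2.9e-06. The row of Jag1 lies on chromosome 3 (130079361 to 130114770, minus strand, in the same unnamed build). Jag2, its paralog, had 16.6, 16.5 and 13.7 CPM in the controls and 17.5, 15.2 and 16.8 CPM with progesterone, ranges that overlapped. Its log2 fold change was 0.08 (95% interval -0.12 to 0.27, edgeR adjusted p = 0.50).

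Dll4, the Delta-type ligand of arterial and sprouting endothelium, was read at 5.35, 6.4 and 8.27 CPM in the controls and at 2.79, 5.18 and 4.94 CPM with progesterone. The groups did not overlap, although control replicate 1 and progesterone replicate 2 lay close together, and progesterone replicate 1 was by far the lowest. The fall was 1.55-fold (log2 fold change -0.63 ± 0.24, edgeR adjusted p = 0.038). The call of Dll4 was lost when certain single libraries were left out, with a smaller change in some cases and a larger one in others. Its log2 fold change was -0.66 (edgeR adjusted p = 0.075) without control replicate 2 and -0.45 (edgeR adjusted p = 0.12) without control replicate 3. It was -0.40 (edgeR adjusted p = 0.079) without progesterone replicate 1 and -0.74 (edgeR adjusted p = 0.053) without progesterone replicate 3. With upper quartile scaling (-0.53, edgeR adjusted p = 0.067) and with limma on either FPKM scale the call was lost as well.

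Markers of endothelium, where Dll4 is best known, held genes that passed in each direction. Of 17 with a row, 15 were tested: 5 rose (31.2% of all genes), 5 fell (31.8%) and 5 did not pass (median of the log2 fold changes -0.19). Without control replicate 1 the number higher was 2, and without control replicate 2, progesterone replicate 2 or progesterone replicate 3 it was 3. The summed FPKM of the list was 247, 243 and 268 in control replicates 1 to 3 and 196, 215 and 227 in progesterone replicates 1 to 3. With progesterone both this sum and Dll4 were lowest in replicate 1, but Dll4 was highest in replicate 2 and the sum in replicate 3. Among the controls the sum was lowest in replicate 2 and Dll4 in replicate 1, and both were highest in replicate 3. Tek, the angiopoietin receptor, had a log2 fold change of -1.85 ± 0.10 and Flt1, a VEGF receptor, of 1.04 ± 0.10. Eng, a TGF-beta coreceptor and the most read of the list, had -0.33 ± 0.05. It made up most of the summed FPKM, with means of 168 FPKM in the controls and 133 FPKM with progesterone. Gja5, an arterial connexin, did not pass (0.18, edgeR adjusted p = 0.071). Cdh5, the endothelial cadherin, was read at 38.3, 42.8 and 54 CPM in the controls and at 22.3, 36.2 and 32.7 CPM with progesterone, and did not pass (-0.57, edgeR adjusted p = 0.11). Cldn5, a tight junction gene of endothelium, had no count in any library. The part of endothelial RNA in the Dll4 values was not tested.

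**Figure D2:**
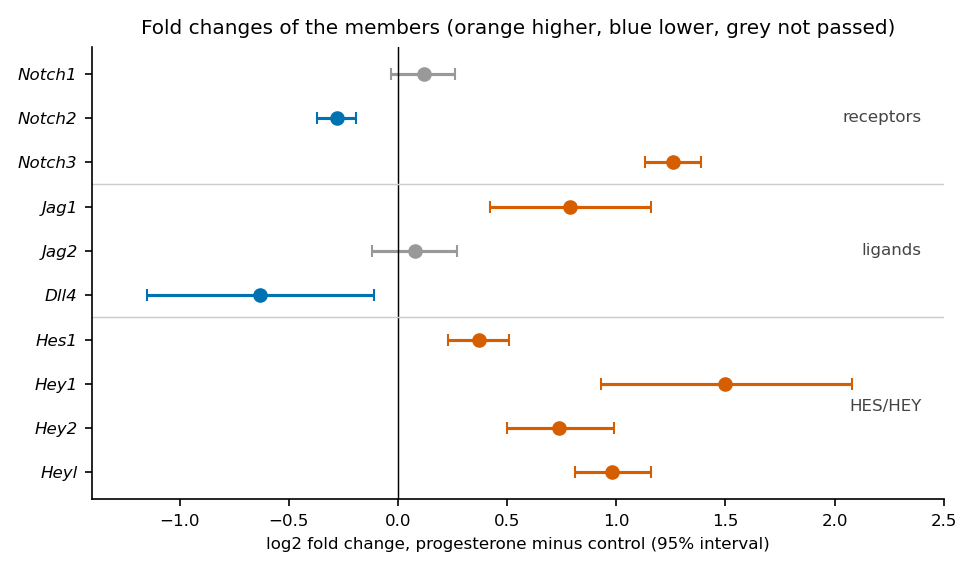
Log2 fold change of each Notch gene, progesterone minus control (x axis), with its 95% interval from edgeR's fit, grouped into receptors, ligands and HES/HEY factors. All 4 HES/HEY genes lie to the right of 0, from 0.37 for Hes1 to 1.5 for Hey1, while receptors and ligands lie on both sides.

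All 4 HES and HEY genes were higher with progesterone, by unequal amounts. Hes1, which encodes a repressor that Notch and several other signals induce and that represses its own gene, was read at 49, 45.6 and 45.3 CPM in the controls and at 65.2, 54.2 and 61.4 CPM with progesterone. The groups did not overlap, and the rise was 1.29-fold (log2 fold change 0.37 ± 0.06, edgeR adjusted p = 0.00016). Heyl, a HEY factor described in smooth muscle as a target of Notch3, had 14.9, 15.5 and 14.3 CPM in the controls and 30.4, 31.9 and 26.2 CPM with progesterone. That is a rise of 1.98-fold with a narrow spread (log2 fold change 0.98 ± 0.08, edgeR adjusted p = 4.3e-08). Hey2, a HEY factor of ventricular cardiomyocytes and of arteries, had 12.7, 11.8 and 10.9 CPM in the controls and 23.1, 19.8 and 16.5 CPM with progesterone. Its progesterone libraries were spread widely, all above the controls, for a rise of 1.67-fold (log2 fold change 0.74 ± 0.11, edgeR adjusted p = 6.8e-05).

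Hey1, the HEY factor of atrial cardiomyocytes and endothelium, was the least read of the 10 genes. It had 15, 16 and 17 counts in the control libraries (0.591, 0.687 and 0.744 CPM) and 35, 37 and 54 counts with progesterone (1.66, 1.74 and 2.34 CPM). No library of one group reached the other. The fold of 2.84 was the largest of the 10, with a wide error (log2 fold change 1.5 ± 0.27, 95% interval 0.93 to 2.08, edgeR adjusted p = 0.00017). On the log2(FPKM + 1) scale, which understates changes of low genes, its change was 0.81. The 95% interval of Hes1 (0.23 to 0.51) lay below those of Heyl (0.81 to 1.16) and Hey1.

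The DNA just before the start of the HES and HEY genes is shown because RBPJ acts by binding there. The sequences are the 250 bases before the annotated start in the RefSeq table for build GRCr8, which held 8 of the 10 genes, in 9 entries. Hey1 and Dll4 had no entry, so their promoters were not searched. They were searched on both strands for TGGGAA, the core of the RBPJ site, and for GTGGGAA, which contains that core. Capitals mark TGGGAA or its reverse complement. Hes1 is at chr11:84213046-84213295 (minus strand), Hey2 at chr1:28640850-28641099 (plus), Heyl at chr5:140793021-140793270 (plus) and Notch3, the receptor that rose, at chr7:11834586-11834835 (minus).

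Hes1: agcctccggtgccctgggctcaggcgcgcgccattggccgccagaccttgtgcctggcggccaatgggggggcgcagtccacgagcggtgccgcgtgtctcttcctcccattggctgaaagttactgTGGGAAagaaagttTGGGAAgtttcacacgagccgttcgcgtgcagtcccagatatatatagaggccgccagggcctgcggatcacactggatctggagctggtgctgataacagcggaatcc
Hey2: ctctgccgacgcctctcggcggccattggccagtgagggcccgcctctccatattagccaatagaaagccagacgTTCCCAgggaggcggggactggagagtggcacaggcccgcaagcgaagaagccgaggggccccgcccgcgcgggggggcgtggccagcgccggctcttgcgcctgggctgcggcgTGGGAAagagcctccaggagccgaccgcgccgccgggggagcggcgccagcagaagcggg
Heyl: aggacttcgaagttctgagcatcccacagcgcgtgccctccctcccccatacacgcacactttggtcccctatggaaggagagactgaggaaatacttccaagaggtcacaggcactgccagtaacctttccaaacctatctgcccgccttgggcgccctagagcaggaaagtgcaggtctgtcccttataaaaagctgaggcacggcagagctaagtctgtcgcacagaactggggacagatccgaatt
Notch3: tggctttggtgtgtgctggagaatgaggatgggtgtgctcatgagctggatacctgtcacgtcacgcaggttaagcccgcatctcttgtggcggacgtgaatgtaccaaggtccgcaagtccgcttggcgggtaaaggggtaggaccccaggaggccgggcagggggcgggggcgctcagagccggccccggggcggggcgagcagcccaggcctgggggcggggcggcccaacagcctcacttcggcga

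The Hes1 sequence held TGGGAA beginning 123 and 109 bases before the start, both on the strand of the gene, and the first of them is also a GTGGGAA. The Hey2 sequence held the core 60 bases before the start on the strand of the gene, again as GTGGGAA, and 175 bases before the start on the other strand. Among the 8 Notch genes with an entry, these were the 2 with TGGGAA and also the 2 with GTGGGAA. Of all 33469 promoter windows of that length, 22.1% held TGGGAA and 5.27% GTGGGAA. Heyl and Notch3, both of which rose more than Hes1, had neither string in these windows, which says nothing of more distant sites. The N box CACGAG, a string bound by HES factors, was found in the Hes1 window at 171 and 97 bases before the start, in 1 of the 8 genes and in 5.39% of all windows. Of its variants, CACTAG was found in Notch1 (7.88% of all windows), CACAAG in Notch1, Notch3 and Hes1 (12.9%) and CACCAG in Hes1 (17%). The E box CACGTG was found in none of the 8, and in 5.59% of all windows. The windows of the Notch genes ran from 54.8% G and C for Heyl to 83.6% for an entry of Jag2, against a median of 51.2% over all windows. Such matches are strings, not measured binding.

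Levels can be set between genes only per length, for which the FPKM values deposited by the authors were used. In the controls Hes1 stood highest with 32.2 ± 1.48 FPKM (SD, n = 3), followed by Notch2 with 14.6 ± 0.155, Notch3 with 10.5 ± 0.382 and Jag1 with 6.3 ± 0.505 FPKM. Hey2 came next with 4.4 ± 0.331 FPKM. Jag2 (3.43), Notch1 (3.39) and Heyl (3.19 FPKM) followed as neighbours whose library ranges overlapped, so their order is not resolved. Dll4 was read at 1.46 ± 0.321 and Hey1 at 0.715 ± 0.0811 FPKM. With progesterone the order was Hes1 with 41.5 ± 3.89, Notch3 with 25.1 ± 2.37, Notch2 with 12 ± 0.36 and Jag1 with 10.9 ± 2.03 FPKM, of which the last pair overlapped. Hey2 (7.36) and Heyl (6.3 FPKM) overlapped as well. Both stood above Notch1 (3.66) and Jag2 (3.62 FPKM), which overlapped each other. Hey1, at 2.03 ± 0.392 FPKM, had changed places with Dll4, at 0.939 ± 0.285 FPKM.

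Within the receptors the balance turned. Notch2 gave 50.9%, 51.1% and 51.7% of the summed FPKM of the 3 receptors in the controls, and 28.3%, 29.8% and 30.3% with progesterone. Notch3 gave 38.1%, 37.1% and 35.4% in the controls and 63.7%, 60.8% and 60.1% with progesterone. The ratio of Notch3 to Notch2 was thus below 1 in each control (0.684 to 0.749) and above it in each progesterone library (1.98 to 2.25). An exact two-sided permutation test of each share gave p = 0.10, the smallest that 3 against 3 allows. The summed receptor FPKM was 28.4 ± 0.0818 in the controls and 40.8 ± 2.57 with progesterone. Among the ligands Jag1 gave 56.2% ± 1.84 in the controls and 70.2% ± 4.13 with progesterone, and Dll4 13.1% ± 3.58 and 6.28% ± 2.46. Hes1 remained the main HES/HEY transcript, with 79.5% ± 0.531 and 72.5% ± 2.45 of the summed FPKM, while the share of Heyl went from 7.89% ± 0.399 to 11.1% ± 1.51.

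**Figure D3:**
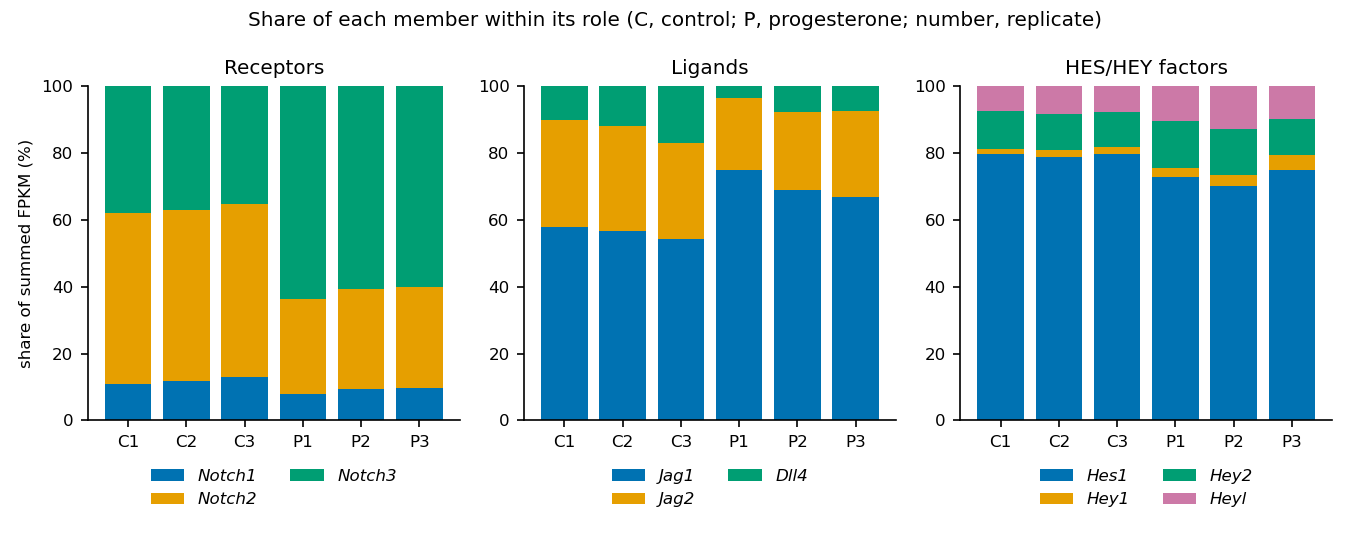
Share of each Notch gene in the summed FPKM of its role (y axis, percent), in each control (C1 to C3) and progesterone (P1 to P3) library, for 3 receptors, 3 ligands and 4 HES/HEY factors. Notch3 takes 35.4% to 38.1% of the receptor sum in the controls and 60.1% to 63.7% with progesterone.

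Replicates differed more for some members than for others. In the controls the coefficient of variation of CPM was 1.15% for Notch2, 3.5% for Notch3 and 4.11% for Heyl, but 22.2% for Dll4. With progesterone it was 30.5% for Dll4, 19.4% for Hey1, 18.5% for Jag1 and 16.7% for Hey2, against 2.87% for Notch2. Progesterone replicate 1 had the highest Notch2, Notch3, Jag1, Jag2, Hes1 and Hey2 values of its group. Its Notch1, Dll4 and Hey1 values were the lowest, with Heyl in between. Control replicate 1 held the same places in its group, except that its Notch2 value was not the highest. The summed CPM of the smooth muscle and pericyte markers was highest in replicate 1 of each group. It was 6729.9 against 6414 and 6109 with progesterone, and 3115.1 against 2888 and 2776.2 in the controls. Acta2 alone had 2787, 2596 and 2450 CPM in progesterone replicates 1 to 3 and 810, 675 and 585 CPM in control replicates 1 to 3. Whether these markers bear on the spread was not tested.

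The rest of the pathway was read from 8 lists of genes with 77 names, of which 73 had a row and 66 were tested. With progesterone 18 of the 66 were higher and 26 lower (median of the log2 fold changes -0.10), so that the share that passed was near that of all genes (63.0%). Passing changes of at least 1.5-fold were seen for 7 higher and 10 lower genes of the 66, where 13.1% and 15.9% of all genes were so called. The counts of each list below stand beside 31.2% of all genes called higher and 31.8% called lower. Upper quartile scaling gave 26 higher and 20 lower.

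Among the other receptors and ligands, Notch4, the endothelial receptor, had 6.58, 7.26 and 8.41 CPM in the controls and 3.03, 7.44 and 6.06 CPM with progesterone. The groups overlapped, with progesterone replicate 1 lowest, and the change did not pass (log2 fold change -0.43, 95% interval -1.18 to 0.33, edgeR adjusted p = 0.28), although it did with no filter on low counts (-0.44, edgeR adjusted p = 0.015). Dll1, a Delta-type ligand, was low and fell by 0.76 ± 0.25 on the log2 scale (edgeR adjusted p = 0.014), from 2.54 to 1.5 CPM, a call lost without control replicate 2 (-0.54, edgeR adjusted p = 0.10) or progesterone replicate 2 (-0.65, 0.058). Dlk1, a Delta-like protein of fetal tissues that lacks the domain by which classical ligands bind Notch, was read at 1.81, 1.16 and 1.97 CPM in the controls and at 5.3, 4.71 and 4.24 CPM with progesterone. Dner, a Delta-like protein best known from neurons, had 1.14, 0.773 and 0.657 CPM and, with progesterone, 3.69, 2.82 and 2.21 CPM. Both rose without overlap of the groups, by 2.88-fold and 3.35-fold (edgeR adjusted p = 1.4e-05 and 4.6e-05). Egfl7, a secreted endothelial protein and the most read gene of this list, fell 1.43-fold, from 22.3 to 15.6 CPM. Dll3, Dlk2 and Cntn1 were too low to be tested.

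Ligand activity needs ubiquitination and endocytosis in the sending cell, and 3 of the 6 genes listed for it were higher and 1 lower. Neurl1b, a ubiquitin ligase of the Neuralized family that acts on Notch ligands, was read at 8.15, 9.49 and 10.8 CPM in the controls and at 22.6, 21.2 and 22.6 CPM with progesterone. It rose 2.34-fold (log2 fold change 1.22 ± 0.10, edgeR adjusted p = 3.1e-08). Epn2, an endocytic adaptor, moved the other way, from 93.1 to 57.4 CPM (log2 fold change -0.70 ± 0.04), and Epn1, its paralog and the most read of the list, rose from 117 to 135 CPM. Mib1, the main ligase for these ligands, had 62.1 and 78.7 CPM and did not pass (0.34, edgeR adjusted p = 0.064), although it passed with DESeq2 (adjusted p = 0.00046), upper quartile scaling (edgeR adjusted p = 0.027), no filter (edgeR adjusted p = 0.027) and limma on either FPKM scale, and without control replicate 1 (0.22, edgeR adjusted p = 0.014) or 3 (0.44, edgeR adjusted p = 0.022).

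Of the fringe genes, whose enzymes lengthen sugars on Notch and so change which ligand it favours, Lfng and Rfng rose and Mfng fell. Lfng was read at 5.95, 5.45 and 5.3 CPM in the controls and at 13.2, 14.7 and 15.7 CPM with progesterone, a rise of 2.61-fold (log2 fold change 1.39 ± 0.11, edgeR adjusted p = 3.1e-08). Mfng, at 3.66, 3.26 and 5.08 CPM in the controls, had 1.94, 2.31 and 2.55 CPM with progesterone (log2 fold change -0.81 ± 0.21, edgeR adjusted p = 0.0029). The ratio of Lfng to Mfng in FPKM was 0.864 to 1.38 in the controls and 5.1 to 5.64 with progesterone (exact two-sided permutation p = 0.10, the smallest possible). Rfng, the third fringe gene, was higher with progesterone, at 23.6 and 27.8 CPM (log2 fold change 0.23, edgeR adjusted p = 0.0061), without overlap of the groups. It had the largest part of the summed fringe FPKM in both groups, 74.6% ± 1.88 in the controls and 67.6% ± 2.88 with progesterone. Furin, the protease that matures Notch and many other proteins, fell from 509 to 356 CPM (log2 fold change -0.52 ± 0.04). Over the 6 genes of receptor sugar modification and maturation, 2 were higher and 2 lower.

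The genes that cut the receptor fell together. Of the 8 listed, 7 were lower and none was higher with progesterone (median of the log2 fold changes -0.42), where 31.8% of all genes were lower. Adam17, a sheddase of many membrane proteins that can make the first cut, fell from 165, 166 and 172 CPM to 81.4, 93.2 and 82.6 CPM (log2 fold change -0.97 ± 0.05, edgeR adjusted p = 2.4e-10). Psen2, a catalytic subunit of gamma-secretase, which makes the final cut, fell from 222, 223 and 218 CPM to 141, 119 and 141 CPM (-0.73 ± 0.06, edgeR adjusted p = 1.2e-07). For both genes every progesterone library lay well below every control. Adam10, the usual protease of ligand-activated Notch, and the gamma-secretase genes Ncstn, Psenen and Aph1a had log2 fold changes of -0.33, -0.50, -0.42 and -0.15. Aph1b, a paralog of Aph1a, did not pass (0.00, 95% interval -0.22 to 0.22). With upper quartile scaling Aph1a did not pass either (-0.06, edgeR adjusted p = 0.23), while Adam10, Adam17, Psen2, Ncstn and Psenen passed as lower under each scaling tried.

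No tested gene of the nuclear complex passed with a change of 1.5-fold or more. Rbpj, the DNA-binding partner of cleaved Notch, was read at 134, 139 and 141 CPM in the controls and at 122, 130 and 128 CPM with progesterone. That fall of 0.12 ± 0.04 on the log2 scale (edgeR adjusted p = 0.022) was lost with upper quartile scaling (-0.03, 0.61), without control replicate 2 (-0.12, 0.060) or 3 (-0.11, 0.055) and without progesterone replicate 1 (-0.09, 0.096). Of the 6 tested genes of the activating complex 1 was higher and 3 were lower. Beside Rbpj, the lower genes were Snw1 (-0.54 ± 0.05, edgeR adjusted p = 7.4e-08) and Maml1 (-0.31 ± 0.05, edgeR adjusted p = 7e-05). Both were named after their values were seen, and their groups did not overlap. The higher gene was Maml2, a Mastermind coactivator named after its value was seen (0.19), whose call was lost without control replicate 1 or 2 or progesterone replicate 1 or 2, with DESeq2 and with limma. Of 14 co-repressor genes 4 were higher and 4 lower, or 7 higher with upper quartile scaling. Tle4, a Groucho-type corepressor that HES proteins recruit, fell from 49, 47.5 and 47.9 CPM to 19.7, 19.9 and 18.6 CPM (log2 fold change -1.31 ± 0.06, edgeR adjusted p = 3.1e-11).

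Of 11 tested genes of receptor turnover and inhibition, 2 were higher and 5 lower. Without control replicate 2 or with upper quartile scaling the lower count was 3, and the higher count was 1 with DESeq2 and without control replicate 1 or 2 or progesterone replicate 2 or 3. Dtx4 and Dtx2, Deltex-type ubiquitin ligases that act on Notch, fell, Dtx4 from 49.1 to 24.1 CPM (log2 fold change -1.02 ± 0.06) and Dtx2 from 34.5 to 20.4 CPM (-0.76 ± 0.07). Nedd4, a ubiquitin ligase and the most read gene of the list, had a log2 fold change of 0.14 ± 0.04.

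**Figure D4:**
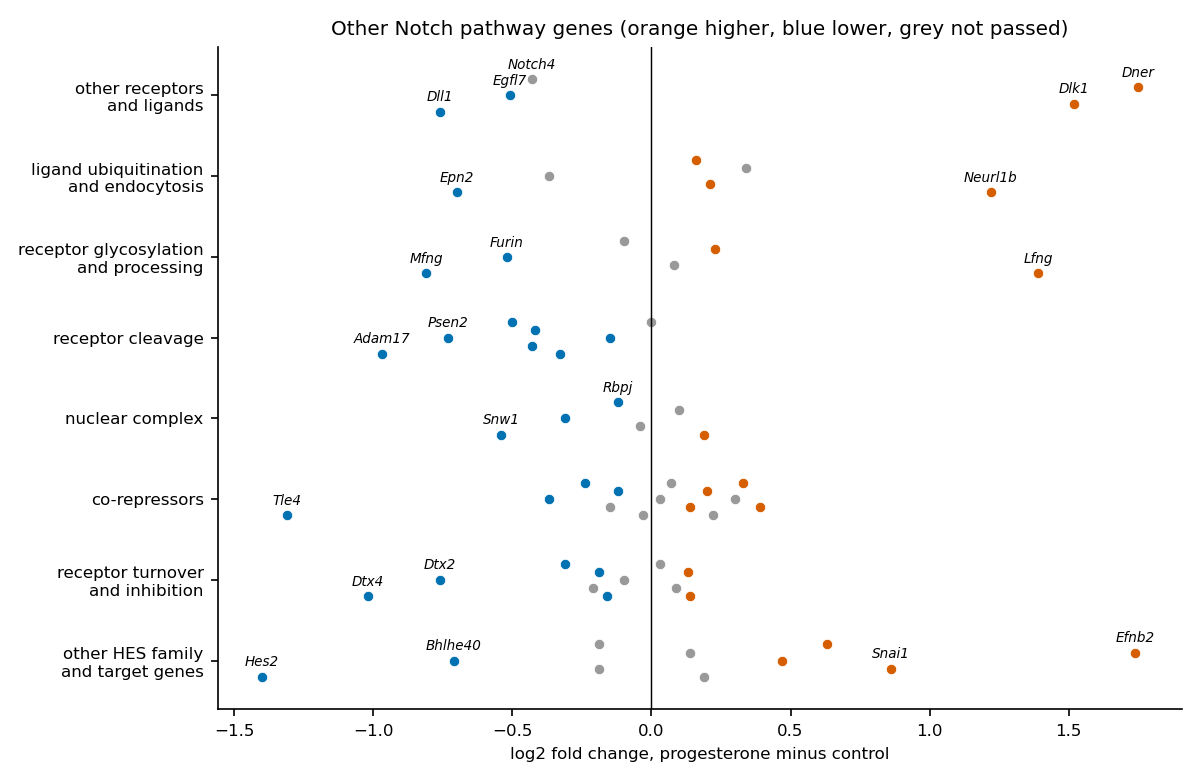
Log2 fold changes, progesterone minus control (x axis), of the 66 tested pathway genes other than the 10 members, by role (rows); each point is a gene, coloured by its call. In the row of receptor cleavage 7 of 8 genes are lower, while the other rows hold genes on both sides of 0.

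Of the other genes of the HES family and other genes described as Notch targets in some tissues, 10 were tested, and 4 were higher, 2 were lower and 4 did not pass. Efnb2, the arterial ephrin, was read at 33, 30.7 and 29 CPM in the controls and at 112, 96.6 and 101 CPM with progesterone. It rose 3.34-fold (log2 fold change 1.74 ± 0.06, edgeR adjusted p = 8.5e-12). Its log2 fold change exceeded that of each of the 10 Notch genes, and that difference was not tested. Snai1, a repressor of epithelial genes, rose from 44.1 to 80.3 CPM (0.86 ± 0.05) and Sox9, a factor of valve and cartilage precursors, from 18.9 to 29.3 CPM (0.63 ± 0.07). Bhlhe40, a repressor gene that responds to hypoxia and the clock, fell from 120 to 73.4 CPM (-0.71 ± 0.06). Nrarp, a feedback inhibitor that Notch commonly induces, had 3.78, 3.48 and 3.98 CPM in the controls and 3.65, 5.22 and 3.94 CPM with progesterone. Its groups overlapped, and it did not pass (0.19, 95% interval -0.19 to 0.56, edgeR adjusted p = 0.37). Hes2 was near the limit of detection, with 44 counts over the controls and 15 over the progesterone libraries. Its log2 fold change of -1.4 ± 0.56 (edgeR adjusted p = 0.041) became -2.39 without progesterone replicate 2 and -0.89 (edgeR adjusted p = 0.16) without replicate 3, and did not pass without control replicate 2 (-1.27, 0.12), control replicate 3 (-1.31, 0.093) or progesterone replicate 1 (-1.28, 0.11), nor with upper quartile scaling or DESeq2. Hes5, the HES gene most tied to Notch in neural tissue, had 6 and 12 counts over the groups and was not tested.

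The labelled cell type was present beside others. In the controls the cardiomyocyte genes Tnnt2 and Myh6 stood at 1901 and 724 FPKM and the collagen gene Col1a1 at 2549.6 FPKM. Of 13 tested cardiomyocyte markers 6 were higher and 5 lower with progesterone (2 lower with upper quartile scaling), with Myh6 at -0.33 ± 0.05, Tnnt2 at -0.29 ± 0.05 and Myh7 at 0.14 ± 0.04. Fibroblast markers were higher in 6 and lower in 3 of 11, among them the collagen gene Col3a1 at 1.07 ± 0.05 and the proteoglycan gene Dcn at -1.15 ± 0.09. Leukocyte markers were higher in 6 of 7, among them the macrophage genes Lyz2 (7.06 and 110.0 CPM) and Cd68 (9.75 and 18.5 CPM), while Cd14 did not pass (-0.11). Epicardial markers were higher in 3 and lower in 4 of 8 and Schwann cell and neuron markers higher in 2 and lower in 1 of 5. In which of these cells a Notch gene was read was not measured.

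**Figure D5:**
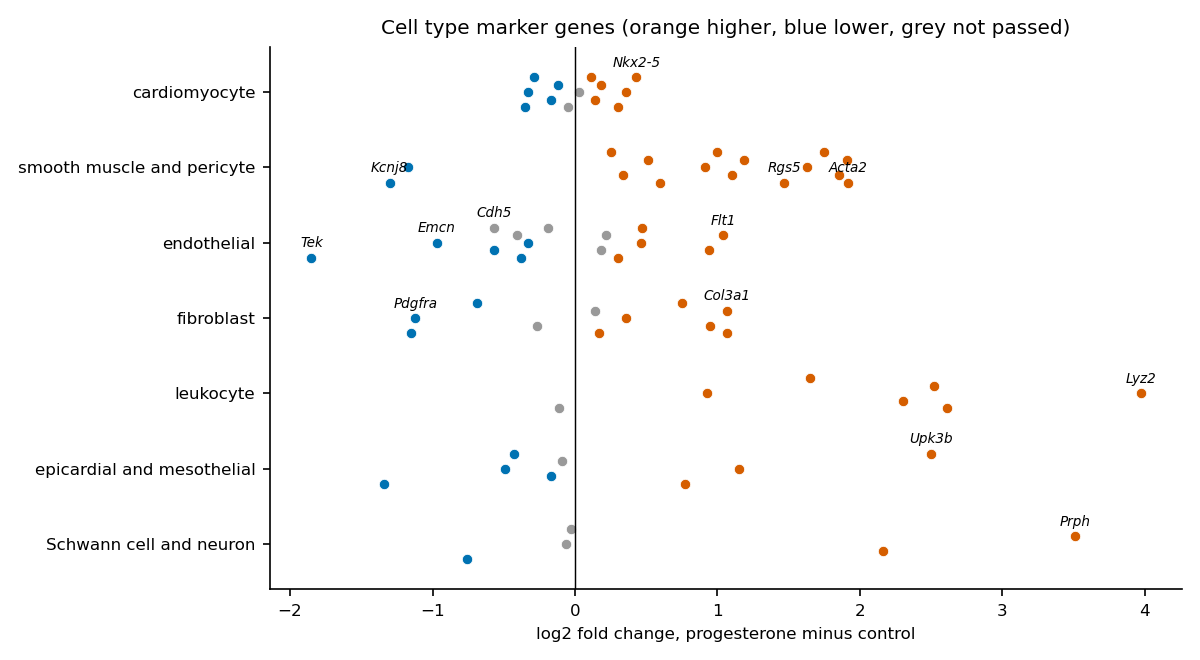
Log2 fold changes, progesterone minus control (x axis), of tested marker genes of 7 cell types (rows); each point is a gene, coloured by its call. Smooth muscle and pericyte markers are higher in 14 of 16 genes, and endothelial markers lie on both sides of 0, with Tek at -1.85 and Flt1 at 1.04.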

How the data were processed

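The authors deposited raw counts and FPKM values (counts divided by gene length and by a library total) of each gene for 6 rat libraries. Per the submitters' processing notes Bowtie 0.12.2 and build mm8 were used, a mouse build, although the rows are rat Ensembl genes. Rat build, annotation, counter and strand setting: not given in the sources used here. Gene lengths came from the deposited tables. The comparison of protein sequences was not run.

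In R 4.3.3, edgeR 4.0.16 tested counts of 15075 genes (filterByExpr: minimum count 10, minimum total 15; TMM scaling, robust quasi-likelihood F test, Benjamini-Hochberg adjustment). CPM are TMM-scaled. SEs come from the F statistic and 95% intervals from its degrees of freedom. The members and lists were chosen with earlier results of these data known. Named beside the members were passing genes of at least 1.5-fold (at most 5 a list) and the most read gene of each list, and for marker lists the 3 most read, with the 2 largest changes for endothelium and smooth muscle. Notch4, Mib1, Rfng, Maml1, Maml2, Snw1, Nrarp, Hes5 and the smaller changes among cleavage genes were named outside that rule, after their values were seen. So were the markers Kcnj8, Abcc9, Rgs5 and Cspg4. The 3 rows overlapping a member held 2 counts in all. Scripts were tested on simulated data. Alternatives were other scalings and filters, single libraries left out, DESeq2 1.42.0, a block for the replicate number, and limma 3.58.1 on log2(FPKM + 1) and log2(FPKM + 0.1). Some genes of the pathway lists are counted but not reported here by name.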

Additional observations from a re-analysis of the deposited data

How the results depend on the processing

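Of 150 values of the 10 Notch genes under 15 alternatives, 141 kept their direction and side of the threshold where called, 7 lost a call, all of Dll4, and 2 gained one, both of Notch1. Log2 fold changes ranged from 1.18 to 1.36 for Notch3, -0.30 to -0.18 for Notch2, 0.63 to 0.89 for Jag1, 0.31 to 0.47 for Hes1, 0.81 to 1.6 for Hey1, 0.62 to 0.86 for Hey2, 0.80 to 1.08 for Heyl and -0.78 to -0.35 for Dll4. The uncalled Jag2 ran from -0.01 to 0.17. The number of Notch genes lower was 1 in place of 2 with upper quartile scaling and with limma on log2(FPKM + 1) or log2(FPKM + 0.1), and 1 to 2 with a library left out. The cause was not tested. Upper quartile scaling moved the median of all genes by 0.10 and made 60.1% of called genes higher, against 49.6%. Over all genes same-numbered samples did not deviate together (correlations 0.049, 0.018 and -0.001). Of 6 samples, 2 correlated best with their own number. Yet in each group replicate 1 was highest for Notch3, Jag1, Jag2, Hes1 and Hey2, and lowest for Notch1, Dll4 and Hey1. Whether the numbers pair the samples is not given by the labels and was not settled. The replicate block left 6 Notch genes higher and 2 lower, with Dll4 at an edgeR adjusted p of 0.0024, raised lower endothelial markers from 5 to 8, and let Notch4 pass as lower (-0.49, edgeR adjusted p = 0.044). Counts of 15 to 17 a library limit Hey1 in the controls.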
